A study of Mus musculus with 24 samples.

Results

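The 6 mature mouse miRNAs described here are mmu-miR-99a-5p, mmu-miR-99b-5p and mmu-miR-100-5p of the miR-99/100 family, and mmu-miR-125a-5p, mmu-miR-125a-3p and mmu-miR-125b-5p from the miR-125 hairpins, written without the mouse prefix from here on. They were chosen by name, as members of these families, with earlier results of these data known. All 6 were among the 1657, 1707 and 1767 mature miRNAs of the day 14, day 90 and day 180 tables. Small RNA was sequenced from lungs of C57BL/6 mice, an inbred strain, aged 6 to 8 weeks at the start of the study. The lungs came from mice whose whole thorax had been exposed to 15 Gy of X-rays, taken 14, 90 or 180 days later, or from control mice of the same 3 days. Each of the 6 groups held 4 libraries, 24 in all. The labels name no animals, so p-values measure only the spread between these libraries, which may be technical. The comparison asked whether irradiation of the lung changes these miRNAs early, at an intermediate time or late.

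A miRNA is cut from 1 arm of an RNA hairpin, named 5p or 3p, and its seed, bases 2 to 8, pairs with target mRNAs and lowers their output. miR-99/100 and miR-125 hairpins sit next to let-7 hairpins in 3 clusters of the mouse genome, an arrangement that is old in animal evolution. The miR-99/100 family is known for repressing the growth kinase mTOR, the receptor IGF1R and the chromatin remodeller SMARCA5, the last of these in the setting of DNA damage. The 5p miRNAs of the miR-125 family are known for repressing the let-7 inhibitor LIN28A and pro-apoptotic genes such as BAK1.

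The mature sequences from RefSeq (GRCm38.p6), 5′ to 3′ with the seed in capitals, show why the 6 miRNAs form 3 groups of possible targets rather than 1. All 6 were found in that table.
miR-99a-5p: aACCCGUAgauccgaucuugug
miR-99b-5p: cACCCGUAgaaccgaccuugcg
miR-100-5p: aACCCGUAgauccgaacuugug
miR-125a-5p: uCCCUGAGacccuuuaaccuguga
miR-125b-5p: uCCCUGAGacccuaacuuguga
miR-125a-3p: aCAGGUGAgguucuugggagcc
The 3 members of the miR-99/100 family share 1 seed. miR-99a-5p and miR-100-5p, both 22 bases long, differ by 1 substitution, U16A, counted from the 5′ end. miR-99b-5p differs from miR-99a-5p by 4 substitutions, A1C, U11A, U16C and U21C. miR-125a-5p (24 bases) and miR-125b-5p (22 bases) share the first 13 bases. miR-125a-3p, from the opposite arm of the miR-125a hairpin, has a seed that no other mature mouse miRNA of the RefSeq table carries. miR-351-5p was the other miRNA in the count tables with the seed of miR-125a-5p and miR-125b-5p. No label or file header says how reads that fit 2 close relatives were assigned, so the split between miR-99a-5p and miR-100-5p is uncertain.

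In the GENCODE annotation of GRCm38 the hairpins lie in 3 clusters on the plus strand. Mir99a (chr16:77598936-77599000), Mirlet7c-1 and Mir125b-2 (chr16:77646273-77646343) span 47408 bases in introns of the long non-coding gene Mir99ahg, with Mir99a and Mirlet7c-1 also in an intron of the antisense gene Gm11146. Mir125b-2 also falls in an exon of the transcript C130023A14Rik. Mir100 (chr9:41531425-41531504), Mirlet7a-2 and Mir125b-1 (chr9:41581926-41582002) span 50578 bases in introns of the long non-coding genes Gm49317 and 3110039I08Rik. Mir100 also overlaps an exon of the antisense gene Gm48742, and Mir125b-1 one of the sense-intronic gene Gm28119. Mir99b (chr17:17830188-17830257), Mirlet7e and Mir125a (chr17:17830812-17830879) lie within 692 bases of Spaca6, a protein-coding gene named for the sperm acrosome, with Mir99b and Mirlet7e in introns and Mir125a in an exon. miR-125b-5p has the same sequence from Mir125b-1 and Mir125b-2, so its reads cannot be assigned to chromosome 9 or 16.

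Total counts were 2832205 to 3695133 per library. Markers of lung endothelium and epithelium were present in all 24 libraries, with the endothelial miR-126a-3p as the most abundant miRNA in each. Its count stayed between 111657 and 119208 in the 16 libraries of day 90 and day 180, and the first-ranked miRNA had only 1.21 to 1.65 times the count of the tenth. Among the 10 most abundant miRNAs the median coefficient of variation of counts over the 8 libraries of a day was 8.60%, 2.49% and 3.42% at day 14, 90 and 180. For ranks 51 to 200 it was 20.3%, 23.0% and 32.5%. miR-99a-5p belongs to this flat top, at rank 4 to 12 and at 68.7% to 90.7% of the highest count in its library. The other 5 miRNAs lie further down the curve, as the plot of counts by rank shows.

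**Figure D1:**
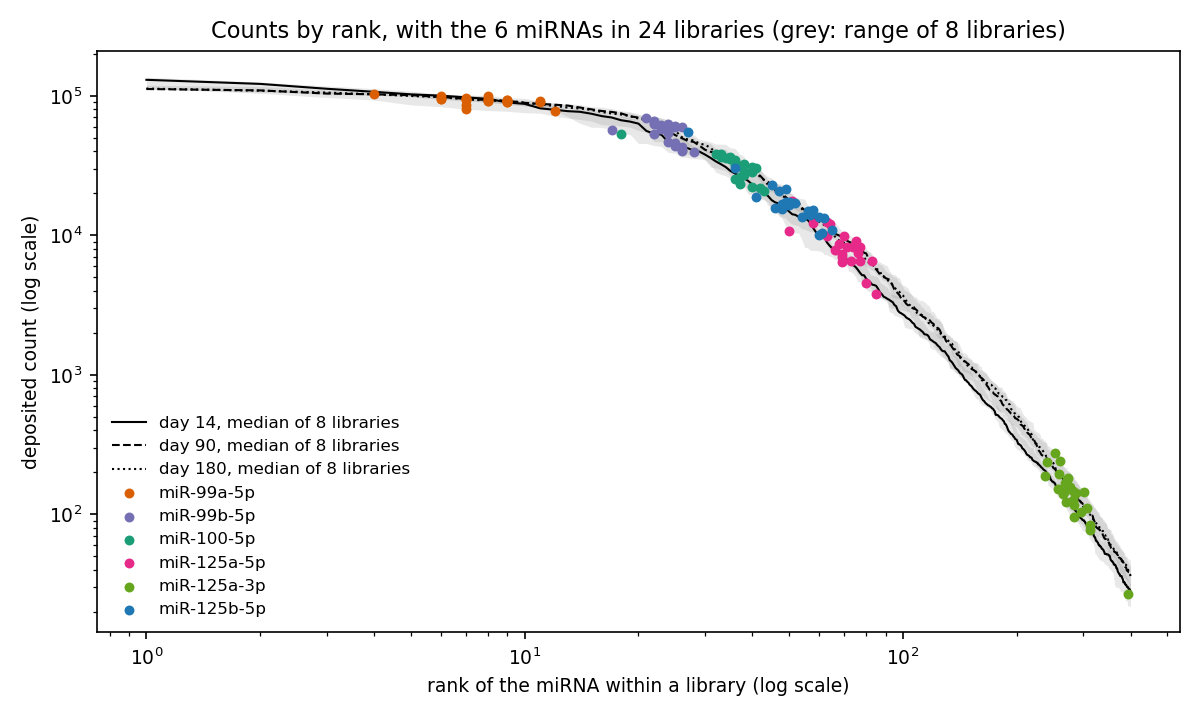
Deposited count (y axis, log scale) against the rank of a miRNA within its library (x axis, log scale). Lines are medians and grey bands ranges over the 8 libraries of a day, and coloured points are the 6 miRNAs in 24 libraries; miR-99a-5p sits on the flat part at rank 4 to 12 and miR-125a-3p at rank 237 to 393.

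Where counts hardly vary, CPM (counts scaled to 1000000 reads of TMM-adjusted library size) move opposite to the library size that divides them. Over 24 libraries, as deviations from group means, log2 CPM of miR-99a-5p followed log2 library size with r = -0.93, and r = -0.85 without the shallowest library. For miR-100-5p the same r was -0.83 and for miR-99b-5p -0.76, and without the shallowest library -0.61 and -0.58, although neither lies in the flat top. For miR-125a-5p, miR-125a-3p and miR-125b-5p it was -0.12, -0.15 and -0.11. The 2 quantities share the library size, so these values are descriptions. The shallowest library, irradiated library 1 of day 180 (2832205 counts), had the highest CPM of miR-99a-5p, miR-99b-5p and miR-100-5p of all 24. What flattens the top of the counts was not tested.

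**Figure D2:**
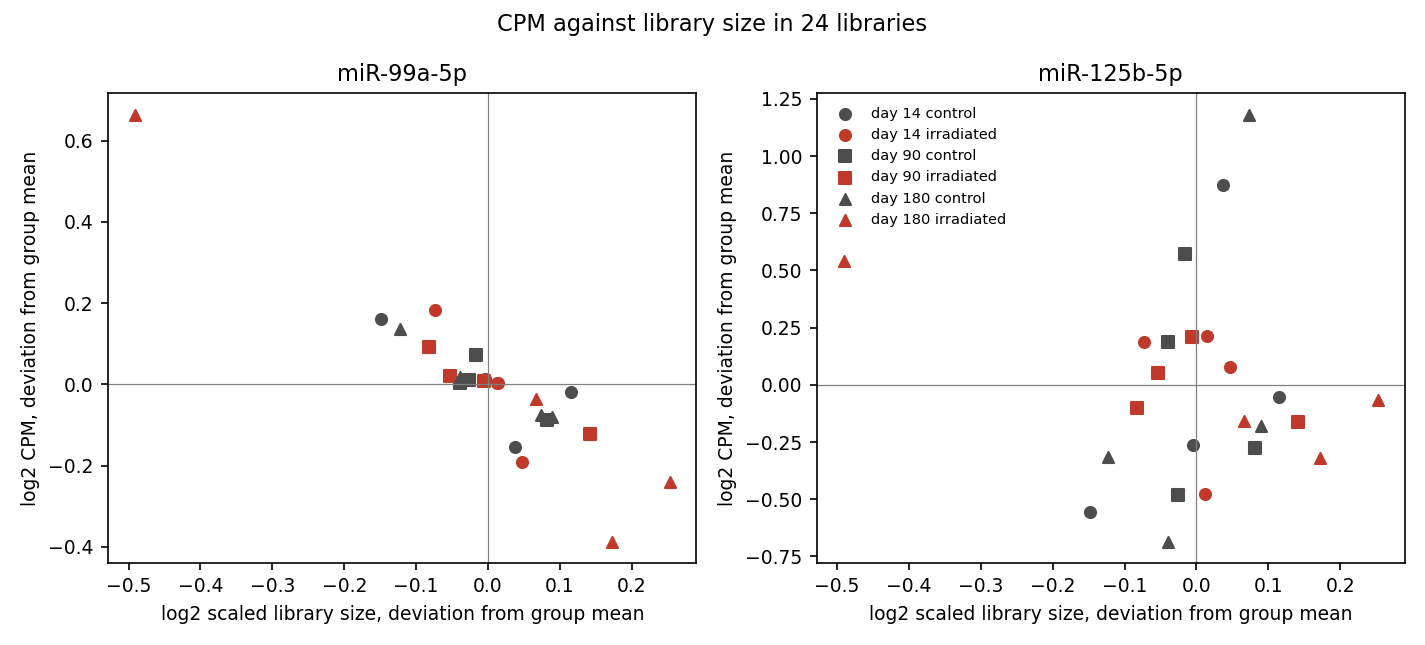
log2 CPM against log2 TMM-scaled library size, both as deviations from group means, with 1 point per library (n = 24) and symbols for day and group. Points of miR-99a-5p fall along a descending line with irradiated library 1 of day 180 at the upper left, while those of miR-125b-5p scatter.

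miR-99a-5p was the most abundant of the 6, with a median count of 93178 over 24 libraries, followed by miR-99b-5p at 58220, miR-100-5p at 31669, miR-125b-5p at 16655, miR-125a-5p at 8275 and miR-125a-3p at 145. A read spans a whole mature miRNA, so counts were not divided by length. Within libraries miR-99a-5p was above miR-99b-5p, miR-99b-5p above miR-100-5p, miR-125b-5p above miR-125a-5p, and miR-125a-5p above miR-125a-3p in 24 of 24. miR-100-5p and miR-125b-5p changed places in control library 1 of day 14 and control library 1 of day 180, and were in the median order in the other 22. Across libraries the ranges of neighbours overlapped for miR-99b-5p with miR-100-5p, for miR-100-5p with miR-125b-5p and for miR-125b-5p with miR-125a-5p. Together the 6 took 5.40% to 8.59% of the counts of a library, of which the miR-99/100 family took 4.67% to 7.54%.

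**Figure D3:**
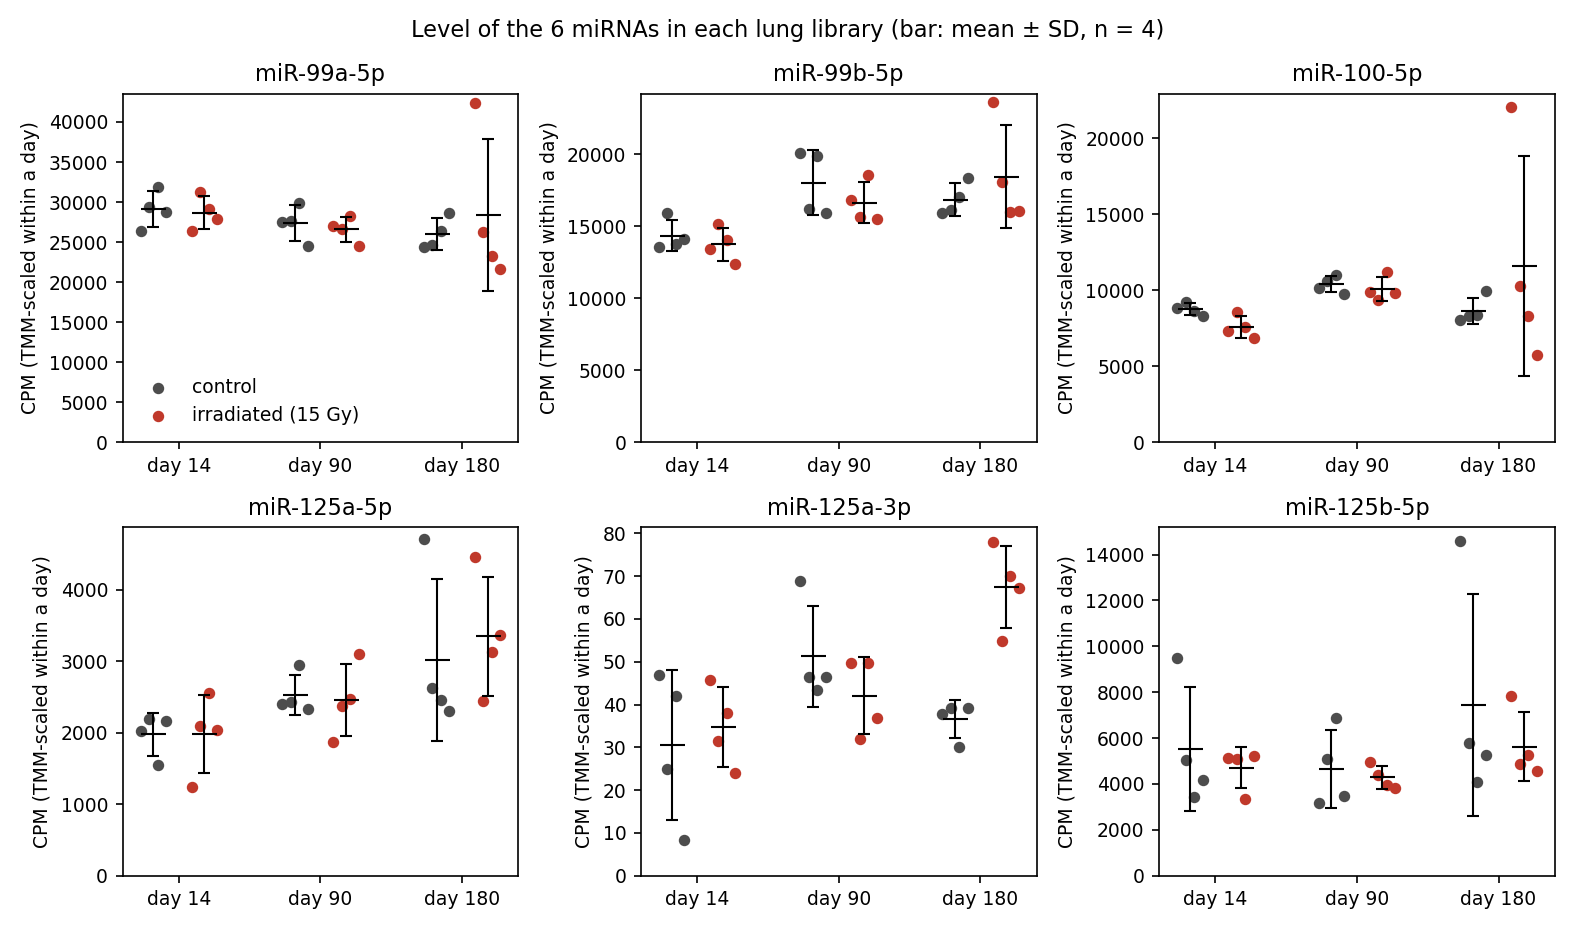
CPM of each of the 6 miRNAs (y axes from 0) in control and irradiated lungs at day 14, 90 and 180, with 1 point per library and bars for mean ± SD (n = 4). The groups overlap in every panel except miR-125a-3p at day 180, where the 4 irradiated libraries lie at 54.9 to 78.01 CPM and the controls at 30.0 to 39.3 CPM.

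None of the 6 miRNAs passed the test at any day. edgeR's quasi-likelihood test with Benjamini-Hochberg adjustment over all miRNAs called 0 of 499 miRNAs at day 14 (0%), 2 of 558 at day 90 (0.358%) and 0 of 552 at day 180 (0%). At an unadjusted p under 0.05 the shares were 5.41%, 12.7% and 18.3% of all miRNAs, against 0, 0 and 1 of the 6. DESeq2 called 1, 18 and 29 miRNAs, with miR-125a-3p at day 180 among them, and limma-voom called 0, 3 and 0. The median log2 fold change of the 6 was -0.04, -0.08 and 0.14 at day 14, 90 and 180, beside 0.01, -0.02 and 0.13 over all miRNAs tested. Irradiated and control libraries did not overlap in 0, 0 and 1 of the 6, against 2.4%, 7.17% and 12% of all miRNAs. Above all controls lay 0, 0 and 1 of the 6 (0.802%, 4.84% and 5.43% of all), and below all controls none (1.6%, 2.33% and 6.52% of all). Log2 fold changes above 0 were found for 2, 0 and 5 of the 6, against 51.9%, 48% and 58.9% of all miRNAs.

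miR-100-5p stood lower at day 14, by less than the test could call. The controls had 8811, 9261, 8631 and 8287 CPM, and the irradiated lungs 7316, 8578, 7606 and 6837 CPM. Only irradiated library 2 reached into the control range. The log2 fold change was -0.21 ± 0.09 (SE, edgeR adjusted p = 0.883), and the exact two-sided permutation p over the 70 splits was 0.0571, where 0.0286 is the smallest possible. Same-numbered libraries deviated together at day 14, a pairing read from these data, and miR-100-5p was lower in the irradiated library of 4 of 4 such pairs. Irradiated libraries 1, 3 and 4 lay below every control, so their pairs would be lower under any numbering. With the replicate block the change was -0.21 (edgeR adjusted p = 0.698), and an exact test of 4 pairs cannot go below 0.125. At day 90 the levels were 10398 ± 534 against 10068 ± 798 CPM in irradiated lungs (SD, n = 4 each).

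At day 180 miR-100-5p ranged widely in irradiated lungs, at 22075, 10257, 8324 and 5714 CPM, around controls of 8071, 8294, 8348 and 9931 CPM. Library 1 was the highest and library 4 the lowest of all 8. Its counts showed the same order, 53482, 36277, 32899 and 20678 against 28646 to 32090 in controls. The log2 fold change of 0.42 ± 0.36 (edgeR adjusted p = 0.551) turned to -0.11 without irradiated library 1.

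miR-99a-5p showed no difference beyond the spread between libraries. Its control and irradiated means were 29118 ± 2258 and 28671 ± 2059 CPM at day 14, and at day 90 27386 ± 2212 and 26617 ± 1551 CPM (SD, n = 4 each). At day 180 the irradiated libraries had 42386, 26286, 23247 and 21689 CPM and the controls 24346, 24644, 26363 and 28676 CPM. Irradiated library 1 alone lay above all controls, and its count of 102689 exceeded the control counts of 90466 to 92658 by far less than its CPM did. The log2 fold changes were -0.02 ± 0.09, -0.04 ± 0.08 and 0.13 ± 0.21 (edgeR adjusted p = 0.978, 0.922 and 0.756). The day 180 value turned to -0.14 without irradiated library 1.

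miR-99b-5p averaged 14333 ± 1080 CPM without and 13735 ± 1167 CPM after irradiation at day 14. At day 90 it averaged 18019 ± 2263 against 16639 ± 1425 CPM, and at day 180 at 16852 ± 1119 against 18448 ± 3601 CPM. Its log2 fold changes were -0.06 ± 0.09, -0.12 ± 0.11 and 0.13 ± 0.15 (edgeR adjusted p = 0.940, 0.727 and 0.672). In counts it was the steadiest of the 6 at day 180, at 57317 to 63846 over the 8 libraries, a coefficient of variation of 3.98%.

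**Figure D4:**
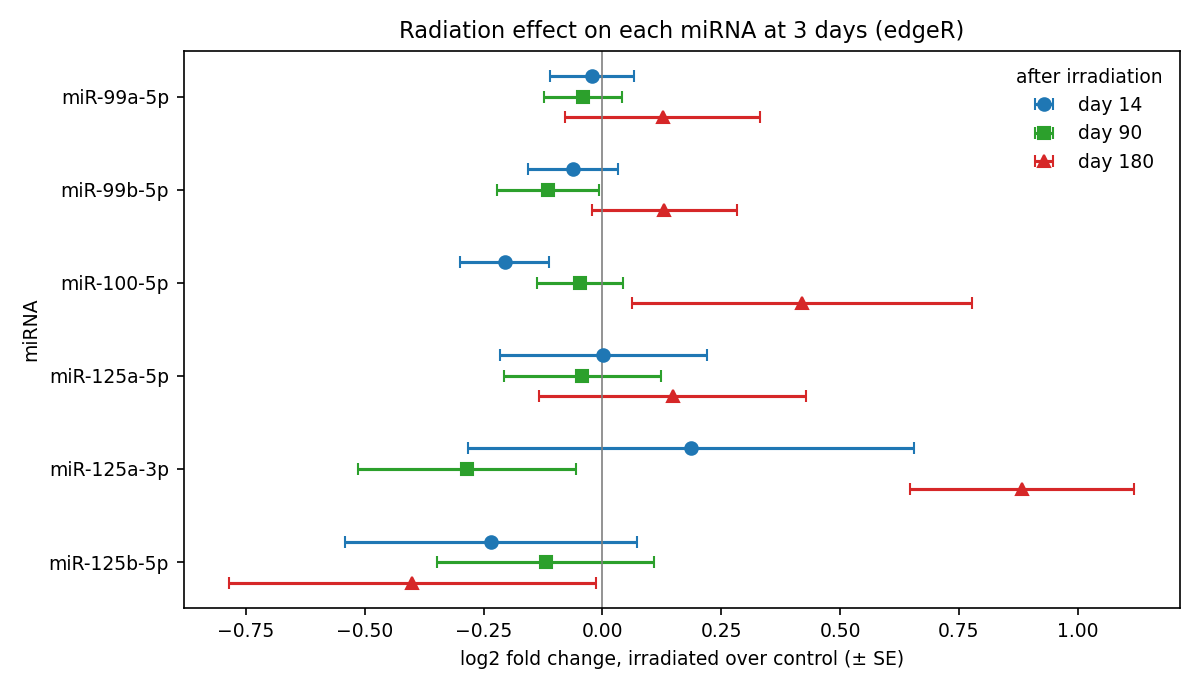
log2 fold change of irradiated over control lung with its SE (x axis) for each of the 6 miRNAs (y axis) at day 14, 90 and 180, from edgeR. miR-125a-3p at day 180, at 0.88, lies farthest from 0, and the other points lie between -0.40 and 0.42.

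miR-125b-5p was the most variable of the 5 abundant miRNAs among controls, with a coefficient of variation of 49.1%, 36.5% and 65.1% of CPM at day 14, 90 and 180. In irradiated lungs it was 19.02%, 11.8% and 26.5%, each below that of at least 1 other abundant member. At day 14 the controls had 9470, 5046, 3421 and 4163 CPM and the irradiated lungs 5140, 5068, 3359 and 5215 CPM. At day 180 the controls had 14599, 5773, 4063 and 5264 CPM and the irradiated lungs 7819, 4852, 5267 and 4564 CPM. Control library 1 was the highest of 8 at both days, and the other 3 controls overlapped the irradiated libraries. At day 90 the controls had 3161, 5093, 6858 and 3484 CPM around irradiated lungs at 4955, 4372, 3967 and 3825 CPM. The log2 fold changes were -0.23 ± 0.31, -0.12 ± 0.23 and -0.40 ± 0.39 at day 14, 90 and 180 (edgeR adjusted p = 0.934, 0.919 and 0.602). Without control library 1 the day 180 value was 0.17.

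miR-125a-5p did not separate the groups either. Control and irradiated lungs averaged 1982 ± 300 and 1985 ± 548 CPM at day 14, 2526 ± 282 and 2453 ± 504 CPM at day 90, and 3022 ± 1131 and 3348 ± 837 CPM at day 180. Control library 1 of day 180 was again the highest control, at 4707 CPM beside 2300 to 2627 CPM in the other 3. The log2 fold changes were 0.0022 ± 0.22, -0.04 ± 0.16 and 0.15 ± 0.28 (edgeR adjusted p = 0.999, 0.971 and 0.792). Their seed relative miR-351-5p averaged 1099 ± 611 CPM after irradiation beside 596 ± 88.1 CPM without it at day 180 (0.88 ± 0.50, edgeR adjusted p = 0.392), with irradiated library 4 at 217 CPM below every control and the other 3 above.

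miR-125a-3p, the scarce opposite arm of miR-125a-5p, showed the clearest separation of the 6 miRNAs. At day 180 the irradiated lungs had 78.01, 54.9, 70.1 and 67.1 CPM and the controls 37.8, 39.3, 30.0 and 39.3 CPM. All 4 irradiated libraries were above all 4 controls, in CPM and in raw counts, which were 189, 194, 277 and 243 against 142, 147, 103 and 127. Of all 552 miRNAs tested, 5.43% lay above all controls in CPM. The share that did so in both CPM and counts is not given here. The means were 67.5 ± 9.61 and 36.6 ± 4.44 CPM (SD, n = 4 each), 1.84-fold. The log2 fold change was 0.88 ± 0.24 with an unadjusted edgeR p of 0.00411 and an adjusted p of 0.163, so the difference did not pass. Over the alternatives the log2 fold change stayed between 0.78 and 0.96 and the adjusted p ranged from 0.00524 (DESeq2) to 0.481 (replicate block). The exact two-sided permutation p was 0.0286, the smallest that 4 against 4 libraries allow. Any miRNA whose groups do not overlap gets this value, so it only restates the separation. At day 180, 12% of all miRNAs did not overlap in CPM.

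At the earlier days miR-125a-3p overlapped between groups. At day 14 it had 47.0, 24.9, 42.0 and 8.30 CPM in controls and 45.7, 31.4, 37.9 and 23.9 CPM in irradiated lungs, and at day 90 it had 68.9, 46.4, 43.5 and 46.5 against 49.8, 32.0, 49.7 and 36.9 CPM. Control library 4 of day 14, with 27 counts, was the lowest of all 24. The log2 fold changes were 0.19 ± 0.47 and -0.29 ± 0.23 (edgeR adjusted p = 0.978 and 0.683). The effect at day 180 exceeded that at day 90 by 1.15 ± 0.48 in a joint fit (edgeR adjusted p = 0.292). It exceeded that at day 14 by 0.69 ± 0.48 (edgeR adjusted p = 0.606). Neither passed, so a difference between days was not shown.

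The summed level of 2 of the marker lists also separated the groups at day 180. Of all 552 single miRNAs tested at that day, 12% did not overlap between groups. The lists are given only as sums, so the part of each marker in them is not shown. The 3 neural miRNAs (miR-124-3p, miR-9-5p and miR-184-3p) lay at 128 to 213 CPM after irradiation and 37.0 to 72.1 CPM in controls, and the 2 miRNAs of stratified epithelium (miR-205-5p and miR-203-3p) at 582 to 790 against 818 to 891 CPM. None of these 5 markers was at 0 counts in any library of that day. Sums of the other 9 lists, from epithelium and endothelium to blood cells and muscle, overlapped between groups at day 180. The part of these cell types in the miR-125a-3p values was not tested, and in whole lung RNA fewer cells of a type and less RNA per cell cannot be told apart.

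The ratio of miR-125a-5p to miR-125a-3p within a library does not depend on library size. At day 180 the controls had 125, 66.9, 81.8 and 58.5 reads of the 5p arm per read of the 3p arm, and the irradiated lungs 57.1, 44.5, 44.7 and 50.1. Every irradiated library was below every control, with irradiated library 1 and control library 4 nearly touching. The ratio divides by the miR-125a-3p counts that already separated the groups, so it is not an independent result. The mean log2 ratio was 6.31 ± 0.48 in controls and 5.61 ± 0.17 in irradiated lungs, a difference of -0.70 ± 0.25 (SE). The exact two-sided permutation p was 0.0286, the smallest possible, and 0.6 when adjusted over 21 tests of 7 ratios at 3 days. That smallest value follows from the separation alone. At day 14 and day 90 the differences were -0.45 ± 0.74 and 0.23 ± 0.33 (exact permutation p = 0.629 and 0.486). Averaged over the 3 days the difference was -0.31 (stratified exact permutation p = 0.299, 0.792 adjusted over 7 ratios).

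**Figure D5:**
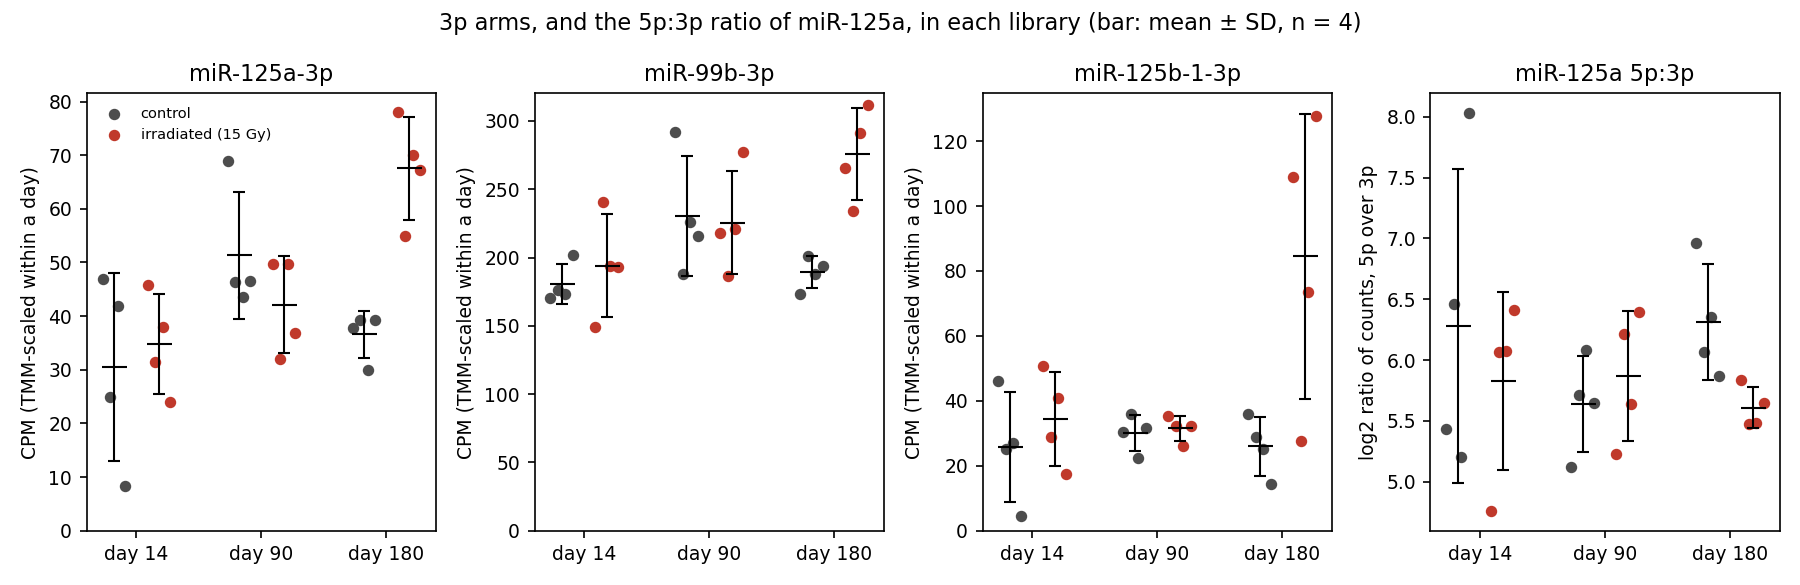
CPM of miR-125a-3p, miR-99b-3p and miR-125b-1-3p (first 3 panels, y axes from 0) and log2 ratio of miR-125a-5p to miR-125a-3p counts (last panel, y axis not from 0) per library, with bars for mean ± SD (n = 4). At day 180 irradiated libraries lie above all controls for miR-125a-3p and miR-99b-3p and below all controls for the ratio, while miR-125b-1-3p overlaps.

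Other 3p arms of the 3 clusters also stood higher at day 180 without passing. miR-99b-3p, cut from the hairpin beside miR-125a, had 265, 234, 291 and 312 CPM after irradiation and 174, 201, 188 and 194 CPM in controls. The groups did not overlap in CPM, but they did in counts, at 643 to 1152 and 626 to 754. Its log2 fold change was 0.54 ± 0.22 (edgeR adjusted p = 0.259, range 0.0225 to 0.602 over the alternatives), beside 0.13 for miR-99b-5p. miR-125b-1-3p, which in contrast to miR-125b-5p comes from chromosome 9 alone, had 109, 27.7, 73.6 and 128 CPM against 35.9, 28.8, 25.1 and 14.2 CPM. Irradiated library 2 lay within the controls and the other 3 above them. Its log2 fold change was 1.70 ± 0.48 (edgeR adjusted p = 0.164, range 0.0146 to 0.479), and it passed with no filter, with DESeq2 and with all 24 libraries in 1 fit. miR-125b-2-3p, from chromosome 16, had 52.6 to 59.0 CPM against 31.3 to 49.5 CPM, with no overlap in CPM (0.40 ± 0.24, edgeR adjusted p = 0.414). Its counts of 143 to 223 and 101 to 186 did overlap.

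Counted over the clusters, 9 of 9 3p arms had a log2 fold change above 0 at day 180, with a median of 0.47 and none called. Among these arms let-7c-1-3p had only 10 to 81 and let-7a-2-3p 8 to 36 counts per library, with overlapping groups. Of the 8 5p arms 7 were above 0, with a median of 0.13. Over all miRNAs tested 58.9% were above 0, over all 3p arms 55.8% with a median of 0.07, and over all 5p arms 58.9% with a median of 0.13. At day 90 4 of the 9 3p arms were above 0, and at day 14 7 of 9. The 11 let-7 partners and opposite arms of the members were listed by name. At day 180 11 of 11 were above 0 and 2 of 11 (miR-99b-3p and miR-125b-2-3p) lay above all controls in CPM, against 5.43% of all miRNAs, and at no day was any of them called by edgeR. In counts neither of these 2 lay above all controls. let-7e-3p did, at 698 to 931 against 573 to 681, but its groups overlapped in CPM. The share of all miRNAs above all controls in counts is not given here. These arms share hairpins and libraries and are not independent of each other.

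The let-7 partners themselves, miRNAs known for restraining proliferation, did not pass the test. Their log2 fold changes at day 180 were 0.11 ± 0.17 for let-7c-5p, 0.19 ± 0.17 for let-7e-5p and 0.05 ± 0.17 for let-7a-5p (edgeR adjusted p = 0.756, 0.586 and 0.895). The groups of all 3 overlapped in CPM. In counts let-7a-5p did not overlap at day 180, with irradiated libraries at 89971 to 92783 below controls at 93292 to 97954, while its CPM change was slightly above 0. Total counts at day 180 averaged 3324724 in irradiated and 3559993 in control libraries. The share of all miRNAs that do not overlap in counts is not given here. let-7c-5p and let-7a-5p also come from hairpins outside these clusters. Of the other 6 ratios, tested at 3 days each, none passed after adjustment over the 21 tests. The lowest exact permutation p among them was 0.0857, for miR-99a-5p to miR-100-5p at day 14, where the mean log2 ratio was 1.73 ± 0.13 in controls and 1.92 ± 0.08 in irradiated lungs. It was higher in the irradiated library of 4 of 4 same-numbered pairs, a pairing read from these data. An exact test of these pairs gives 0.125, the smallest exact p of 4 pairs. The ratio of let-7e-5p to miR-99b-5p, hairpins of 1 cluster, differed by 0.16, 0.25 and 0.06 on the log2 scale at day 14, 90 and 180 (exact permutation p = 0.543, 0.143 and 0.571). The ratio of miR-125b-5p to miR-125a-5p differed by -0.11, 0.0021 and -0.42 (exact permutation p = 0.886, 1 and 0.114).

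Averaged over the 3 days in 1 fit of 24 libraries, edgeR called 13 of 624 miRNAs (2.08%) and none of the 6, with 19.1% of all at an unadjusted p under 0.05 and again none of the 6. With a replicate block within days it called 0. The averaged log2 changes were 0.25 ± 0.20 for miR-125a-3p, -0.25 ± 0.20 for miR-125b-5p, 0.06 ± 0.14 for miR-100-5p, 0.03 ± 0.14 for miR-125a-5p, 0.02 ± 0.09 for miR-99a-5p and -0.02 ± 0.07 for miR-99b-5p. The tests of a difference of effect between days called 0 of 624 miRNAs (0%) in each of 3 comparisons by edgeR, with 11.4% (day 180 minus 14), 14.6% (180 minus 90) and 4.49% (90 minus 14) at an unadjusted p under 0.05. DESeq2 called 3, 3 and 1. miR-125a-3p, for day 180 minus 90, was the only one of the 6 at an unadjusted p under 0.05 in these 3 comparisons. For miR-100-5p the difference was 0.62 ± 0.35 for day 180 minus 14 (edgeR adjusted p = 0.493) and 0.46 ± 0.35 for day 180 minus 90, the latter -0.07 without irradiated library 1 of day 180.

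Members of 1 cluster could be followed together across the 24 libraries, as deviations of log2 CPM from the 6 group means, in 14 pairs named by position or family. miR-99a-5p and let-7c-5p, whose hairpins lie side by side on chromosome 16, had r = 0.92 and rho = 0.89 (permutation p = 1e-05 for each, the smallest that 100000 permutations can give, 0.00014 adjusted over 14 pairs). Within day 14, 90 and 180 r was 0.86, 0.96 and 0.98. miR-99a-5p with miR-125b-5p, from the same cluster, had r = 0.12 and rho = -0.05 (permutation p = 0.557 and 0.835). miR-100-5p with miR-125b-5p had r = 0.25 and rho = 0.10 (permutation p = 0.162 and 0.659). miR-99b-5p with miR-125a-5p, within 692 bases on chromosome 17, had r = 0.23 and rho = 0.18 (permutation p = 0.352 and 0.455). The CPM of a pair share the library size as a divisor, and permuting breaks that link. The permutation p-values therefore do not test co-movement apart from library size. miR-126a-3p, from none of these clusters, had r = 0.95 with miR-99a-5p.

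In CPM the 3 miRNAs of the miR-99/100 family, on 3 chromosomes, moved together, with library size as their shared divisor. The same limit holds for their permutation p-values. r was 0.92 for miR-99a-5p with miR-100-5p, 0.85 for miR-99a-5p with miR-99b-5p and 0.82 for miR-100-5p with miR-99b-5p, with rho of 0.63, 0.76 and 0.74 (each permutation p adjusted over 14 pairs between 0.00063 and 0.0143). Leaving out the 2 libraries farthest from the median, irradiated libraries 1 and 4 of day 180, r was 0.76, 0.70 and 0.76. In unscaled counts r fell to 0.81, 0.37 and 0.23, and that of miR-99a-5p with let-7c-5p to 0.56. Among these 4 pairs r moved least for miR-99a-5p with miR-100-5p. Irradiated libraries 1 and 4 of day 180 held the highest and lowest counts of both, and unscaled r without them is not given here. The split of reads between these 2 miRNAs is also uncertain. miR-125a-5p and miR-125a-3p, the 2 arms of 1 hairpin, had r = -0.20 and rho = -0.24 (permutation p = 0.264 and 0.286). miR-125a-5p and miR-125b-5p had r = 0.44 (permutation p = 0.0756, 0.176 adjusted over 14 pairs) and r = 0.90 within day 180, where control library 1 was high in both. The other 5 pairs had r between 0.02 and 0.65 with an adjusted p of at least 0.138.

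For each member the 3 miRNAs with the most similar pattern were taken from 380 miRNAs with a mean of at least 10 CPM, by Pearson r over the 24 deviations, as a description. For miR-99a-5p they were miR-126a-3p, miR-22-3p and miR-10a-5p (r = 0.95 each), all of them abundant. For miR-100-5p they were miR-676-3p (r = 0.96, rho = 0.53) and the epithelial miR-429-3p and miR-200b-3p (r = 0.92 and 0.91, rho = 0.69 and 0.60). For miR-99b-5p they were miR-423-3p, miR-29c-5p and miR-27b-5p (r = 0.84, 0.83 and 0.82). For miR-125a-3p they were miR-27a-3p, miR-467d-5p and miR-125b-1-3p, the last a 3p arm of its own family. Here r was 0.81, 0.78 and 0.75, but rho only 0.58, 0.51 and 0.56. miR-125b-5p was most like miR-186-5p (r = 0.72), and miR-125a-5p had no close match, with miR-139-3p at r = 0.57. All these values share library size as a divisor.

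Between control lungs of different days, miR-99a-5p had 32221 ± 2986 CPM at day 14, 25634 ± 1352 CPM at day 90 and 24864 ± 1838 CPM at day 180 (SD, n = 4 each, 1 scaling of the 12 control libraries). The lowest control of day 14, at 28333 CPM, was above the highest of the later days, at 27394 CPM. The log2 change was -0.33 ± 0.08 at day 90 (edgeR adjusted p = 0.0486, range 0.0118 to 0.541 over the alternatives) and -0.37 ± 0.08 at day 180 (0.0193, range 0.00599 to 0.818), both against day 14. Beside it edgeR called 3.55% and 8.69% of 564 miRNAs. let-7c-5p was called too, at -0.40 ± 0.10 and -0.37 ± 0.10 (edgeR adjusted p = 0.0486 and 0.0365). With no scaling between libraries the changes of miR-99a-5p were 0.05 and -0.02 and neither passed, and its counts lay between 85588 and 99777 over the 12 libraries. The call at day 90 was lost with RLE size factors, with no filter and without any 1 of control libraries 2 to 4 of day 14, 1 to 4 of day 90 or 1 to 3 of day 180. That at day 180 was lost with no filter and without any 1 of libraries 2 to 4 of day 14 or library 2 of day 180.

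The other 5 miRNAs were not called between days in controls. miR-100-5p had 9667 ± 361, 9740 ± 287 and 8281 ± 807 CPM at day 14, 90 and 180, with log2 changes of -0.22 ± 0.08 (day 180 minus 14, edgeR adjusted p = 0.109) and -0.23 ± 0.08 (180 minus 90, 0.169), the former called without control library 4 of day 180 (-0.28, edgeR adjusted p = 0.0364). miR-99b-5p had 15848 ± 1263, 16857 ± 1732 and 16112 ± 1030 CPM. miR-125a-5p had 2191 ± 337, 2363 ± 200 and 2894 ± 1103 CPM, miR-125b-5p 6060 ± 2816, 4334 ± 1477 and 7119 ± 4688 CPM, and miR-125a-3p 33.5 ± 18.9, 48.1 ± 10.98 and 34.99 ± 4.34 CPM. Between days 180 and 90 edgeR called 0 of 564 miRNAs (0%). With no scaling, miR-99b-5p (0.46 at day 90 and 0.37 at day 180) and miR-100-5p (0.38 at day 90) passed as higher than at day 14. Age of the mice, sequencing run and the making of the tables cannot be told apart between days.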

How the data were processed

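The authors deposited 1 table per day with whole-number counts of each mature miRNA, not normalised, in 24 columns that were matched to libraries by name. The RPM values beside them, the same deposited counts divided by a larger library total, were used only as an alternative scaling. The submitters' processing notes list Bowtie2, without a version, and the build GRCm38.p6. No source used here mentions molecular identifiers, so errors rest on the spread between libraries. Small RNA was cut from a gel and amplified by PCR, per the labels' protocols.

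The 6 miRNAs, the partner, arm and marker lists and the ratios were chosen with earlier results of these data known. Each day was fitted alone with edgeR 4.0.16 in R 4.3.3 (filterByExpr, TMM, quasi-likelihood test, legacy fit, Benjamini-Hochberg threshold 0.05), leaving 499, 558 and 552 miRNAs. Joint fits on miRNAs shared by the 3 tables tested 624 (24 libraries) and 564 (12 controls). CPM within a day use that day's TMM factors, and correlations used log2 of CPM plus 1. Each SE was derived from the fold change and F statistic. Ratio tests were exact and two-sided over counts, while exact tests of single miRNAs used log2 of CPM plus 1. DESeq2 1.42.0 and limma-voom (limma 3.58.1) were alternatives. The procedure was tested on simulated counts, with no change or with changes larger than any found for the 6 miRNAs. Changes of their size were not simulated.

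Replicate numbers were checked as pairs. At day 14 every same-numbered pair of libraries deviated together (r = 0.16 to 0.46), though not every library was most like its same-numbered one. The pairing comes from the data, and the labels do not state it. The main tests used no pairing at any day, and a replicate block was an alternative. At day 90 (r = -0.20 to 0.37) same-numbered libraries did not all deviate together, and at day 180 (r = -0.37 to -0.12) no same-numbered pair did. Named miRNAs were the 6, their 11 cluster partners and opposite arms, seed relatives and the 3 most alike miRNAs of each.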

Additional observations from a re-analysis of the deposited data

Results flagged for a closer look

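In 10 of 120 groups of 4 libraries, 1 library lay apart from the other 3 (gap over range above Dixon's critical value). About 6 such groups, 1 in 20, are flagged by chance. Control library 1 of day 180 was high in both 5p miRNAs of the miR-125 family, at 4707 CPM of miR-125a-5p (the others 2300 to 2627) and 14599 CPM of miR-125b-5p (4063 to 5773). Irradiated library 1 of day 180, the shallowest, was high in let-7c-5p at 43544 CPM (25858 to 28663) and in let-7a-5p at 38297 CPM (23027 to 25438). Control library 4 of that day had 9931 CPM of miR-100-5p (8071 to 8348). miR-125a-3p was low in control library 3 of day 180, at 30.0 CPM (37.8 to 39.3), and high in control library 1 of day 90, at 68.9 CPM (43.5 to 46.5). In that day 90 library the log2 ratio of miR-99b-5p to miR-125a-5p was 3.06 (2.73 to 2.78). At day 14 irradiated library 3 had 3359 CPM of miR-125b-5p (5068 to 5215), and irradiated library 1 had 28350 CPM of let-7c-5p (34570 to 34832).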

How the results depend on the processing

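The 6 miRNAs kept their side of the threshold in the comparisons of irradiated with control lung under every alternative run, except miR-125a-3p at day 180 with DESeq2. A log2 change was counted as reversed where its sign changed and either value was called or more than 1 SE from 0. Of 142 sign changes 131 stayed within 1 SE of 0. Scaling by the totals behind the RPM values, no scaling, TMM without the 10 most abundant miRNAs, the block for differences between days, and correlations without scaling or without irradiated library 1 of day 180 were added after seeing the data. The causes of the changes listed here were not tested.

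Calls at day 14 (0) became 1 with DESeq2, 7 with no filter, 1 in a fit of all 24 libraries, and 0 to 1 when 1 library was left out. Calls at day 90 (2) became 5 with upper-quartile scaling, 18 with no filter, 0 with a mean of at least 10 CPM, 18 with DESeq2, 1 with no scaling, 0 in the fit of 24 libraries, and 0 to 7 with 1 library left out (7 without control 4). Calls at day 180 (0) became 18 with no filter, 29 with DESeq2, 32 in the fit of 24 libraries, and 0 to 5 with 1 library left out (5 without irradiated library 2). Averaged calls (13) became 7 with RLE, 0 with no filter, 25 with DESeq2, 3 with no scaling, and 0 to 21 with 1 library left out (21 without irradiated library 1 or 2 of day 180). Differences of effect (0 each) became 3 (180 minus 14), 3 (180 minus 90) and 1 (90 minus 14) with DESeq2. With 1 library left out they became 0 to 18 (180 minus 14, 18 without irradiated library 2 of day 180) and 0 to 10 (180 minus 90, 10 without irradiated library 1). Among controls, calls for 90 minus 14 (20) became 13 with no filter, 49 with DESeq2, 101 with no scaling and 0 to 25 with 1 library left out. Calls for 180 minus 14 (49) became 83 with DESeq2, 94 with no scaling and 15 to 49 with 1 library left out. Calls for 180 minus 90 (0) became 32 with DESeq2, 2 with no scaling, 2 with TMM without the 10 most abundant miRNAs and 0 to 4 with 1 library left out.

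With a replicate block, calls at day 90 became 0 and averaged calls 0 (replicate block within day), and at day 14 and day 180 they were 0. The block changed no call of the 6 miRNAs. For miR-125a-3p at day 180 it gave 0.88 (edgeR adjusted p = 0.481). At day 90 and day 180 equal numbers did not mark libraries that deviated together.

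With 1 library left out, log2 changes at day 180 ranged from -0.14 to 0.26 for miR-99a-5p and from -0.11 to 0.67 for miR-100-5p, both negative without irradiated library 1, and from -0.62 to 0.17 for miR-125b-5p, positive without control 1. Averaged changes ranged from -0.0798 to 0.051 (miR-99a-5p) and -0.13 to 0.12 (miR-100-5p). The difference 180 minus 14 ranged from -0.14 to 0.30 for miR-99a-5p, and 180 minus 90 from -0.0748 to 0.80 for miR-100-5p, each negative without irradiated library 1 of day 180. Among controls miR-125b-5p (180 minus 14) ranged from -0.35 to 0.62 and miR-125a-5p (180 minus 90) from -0.0114 to 0.42, lowest without control 1 of day 180. With no scaling miR-99a-5p (90 minus 14) turned to 0.046 and miR-100-5p (180 minus 14) to 0.12. The ratio of miR-125a-5p to miR-125a-3p at day 180 had an exact permutation p of 0.0571 with group medians, without control 1 (-0.49) and without any 1 irradiated library, and 0.125 in pairs, the smallest that 4 pairs allow. miR-125a-3p had the lowest counts of the 6, 27 to 277 per library.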
